A study of Arabidopsis thaliana with 8 samples.

Results

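The genes described here encode the start of the cytokinin phosphorelay of Arabidopsis thaliana. They are the receptor kinases AHK2, AHK3 and AHK4 and the histidine phosphotransfer proteins AHP1 to AHP6. They were taken by locus as a family, 9 of 27444 nuclear protein-coding genes, and the choosing rule used no measured value, though the family was proposed with earlier results of these data known. The measurement was ATAC-seq, in which a transposase tags open DNA, and each library is represented by the authors' list of transposase hypersensitive sites (THSs).

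Cytokinin binds an AHK receptor, and phosphate then passes from the receptor through an AHP protein to response regulators (ARRs) in the nucleus. Type-B ARRs activate transcription and type-A ARRs damp the signal. AHP6 lacks the histidine that carries the phosphate and inhibits the relay. In the shoot apex it is known as a gene of young organ primordia that is switched on downstream of auxin and that shapes the timing of organ initiation.

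All libraries came from inflorescence apices of plants with the genotype DRNL::erGFP ap1cal, in which loss of AP1 and CAL keeps meristems proliferating in place of flowers. The GFP-positive group holds sorted protoplasts in which the DRNL promoter was active, called lateral organ founder cells by the labels. The GFP-negative group holds the remaining apex cells, depleted of founder cells, and so mixes several cell types. Each group has 3 libraries, described as biological replicates, and each sort pooled the apices of many plants. The same alleles and reporter are present in both groups, and 2 sheared-DNA controls were not analysed here. The comparison asks whether chromatin at these genes is open to the same extent in founder cells and in their neighbours.

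The lists held 24156 to 26216 sites in GFP-positive and 26001 to 28757 in GFP-negative libraries, and they give no read counts, so depth is unknown. Marker genes of founder cells and young organs were chosen with earlier results of these data known, so they are no independent check of the labels. Coverage (the percent of a gene plus 1000 bp on each side that lies in THSs) averaged over 6 such genes was 56.3% to 63.3% in GFP-positive and 31.2% to 36.3% in GFP-negative libraries. The groups overlapped at DRN, and LFY differed by 6.33 percentage points only. Of the 6, AS2 alone passed the test used below (limma adjusted p = 0.0164). DRNL itself had 55.7%, 59.0% and 66.8% against 39.1%, 35.8% and 29.1%, though the transgene carries DRNL promoter sequence and its reads cannot be told apart from the native locus. Marker genes of the meristem centre (4), the vasculature (4) and green tissue (2) averaged 18.2% to 27.5%, 12.3% to 13.8% and 49.9% to 58.8% in GFP-positive libraries. In GFP-negative libraries they averaged 22.8% to 23.5%, 11.96% to 15.5% and 56.7% to 58.1%. The vascular gene APL was at 0 in all 6 libraries. In such mixed samples a change in the share of cells with an open site and a change within each cell cannot be told apart.

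Of the 9 genes, AHP6 was the one whose coverage was separated between the populations, with a wider open stretch in founder cells. Coverage of AHP6 (AT1G80100, listed in RefSeq as HP6) was 43.5%, 52.8% and 52.8% in the GFP-positive libraries and 34.2%, 31.1% and 37.3% in the GFP-negative libraries. All 3 founder-cell values lay above all 3 neighbour values. The means were 49.7% ± 5.38 and 34.2% ± 3.11 (SD, n = 3 each), a difference of 15.5 percentage points with a standard error of 3.36 and a 95% interval from 6.76 to 24.3. Over the 21886 genes that had any coverage in 2 or more libraries, the limma adjusted p was 0.176 (Benjamini-Hochberg), which does not pass the threshold of 0.05. With 500 bp flanks the groups overlapped, with 53.3%, 66.8% and 66.8% against 49.5%, 45.05% and 54.1% (limma adjusted p = 0.544).

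No member passed that test. It called 0.347% of all genes tested higher and 1.14% lower in GFP-positive libraries, so that no call among 8 tested members is close to the background. The GFP-positive libraries lay above the others at 1 member, AHP6, and below them at none, against 3.61% and 6.63% of all genes tested. At the other 7 tested members the groups overlapped. AHP2 had no THS in its window in any library and was not tested.

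**Figure D1:**
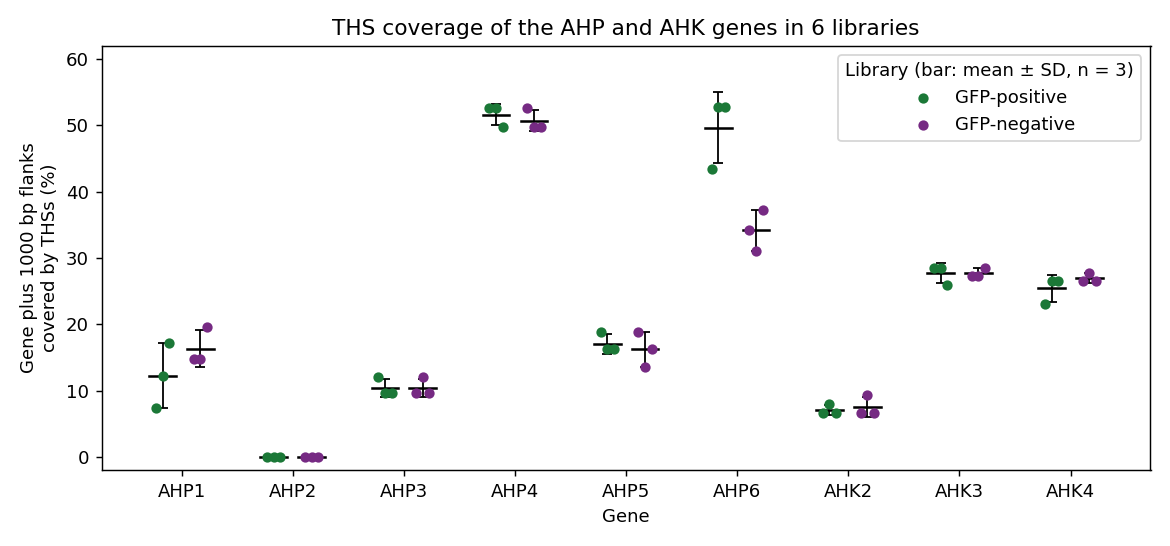
Percent of each gene plus 1000 bp flanks covered by THSs (y axis) for the 9 genes (x axis). Points are libraries and bars are means ± SD (n = 3); AHP6 is the gene at which all GFP-positive points (43.5% to 52.8%) lie above all GFP-negative points (31.1% to 37.3%).

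The difference at AHP6 lay on one side of the gene. The reference table gives no strand, so sides are named by coordinate. A THS beside the lower-coordinate end started at position 30133001 of chromosome 1 (TAIR10) in each founder-cell library and at 30133301 in each neighbour library. It ended at 30133700, 30134000 and 30133900 in GFP-positive replicates 1, 2 and 3, and at 30133700, 30133600 and 30133600 in the GFP-negative ones. It was thus 700, 1000 and 900 bp long in founder cells and 400, 300 and 300 bp long in their neighbours. In founder-cell replicates 2 and 3 it reached into the gene, by 283 and 183 bp, and in the other 4 libraries it stopped 18 or 118 bp short of it.

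The means of this length were 867 ± 153 bp and 333 ± 57.7 bp (SD, n = 3 in each group; two-sided exact permutation p = 0.1, the smallest that 3 against 3 libraries allow). Within each list the score that the authors gave this site ranked higher than 56.7%, 62.3% and 65.9% of sites in the GFP-positive libraries. In the GFP-negative libraries it ranked at 25.4%, 8.51% and 24.1%. The lists differ in length and the score's scale is not stated, so these ranks describe each list alone.

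The stretch from 30133001 to 30133300, from 717 to 418 bp below the lower-coordinate end of AHP6, was covered in all 3 founder-cell libraries and in no neighbour library. Its 3 windows of 100 bp were the only ones with that pattern within 3000 bp of any member, of 228 windows covered in at least 1 library. These 3 adjacent windows are 1.32% of the 228, against 0.817% of covered windows over the genome. The count over members is thus near the background.

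The site at the other end of AHP6 did not separate the groups. It began inside the gene, ended at 30135400 in all 6 libraries and was 700, 700 and 800 bp long in founder cells and 700, 700 and 900 bp long in their neighbours. This site crosses the gap of 87 bp to PP2-B11, an F-box gene of the phloem protein family, so it cannot be assigned to AHP6 alone. Coverage of PP2-B11 (AT1G80110) was 26.8% in each founder-cell library and 24.3%, 24.3% and 37.0% in the others (limma adjusted p = 0.932).

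Another site, from 30131601 to 30131900, lay 1818 bp below AHP6, inside the neighbouring gene CBSX4. It was 300 bp long in all 3 founder-cell libraries and in GFP-negative replicate 3, and was not listed in GFP-negative replicates 1 and 2. GFP-negative replicate 3 had the longest list of the 6, and there the site's score ranked above 1.93% of the list, near the bottom. Beyond PP2-B11, 2664 bp above AHP6, a further region was open in all 6 libraries, over 1100, 1400 and 1200 bp and over 1200, 1400 and 1100 bp.

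**Figure D2:**
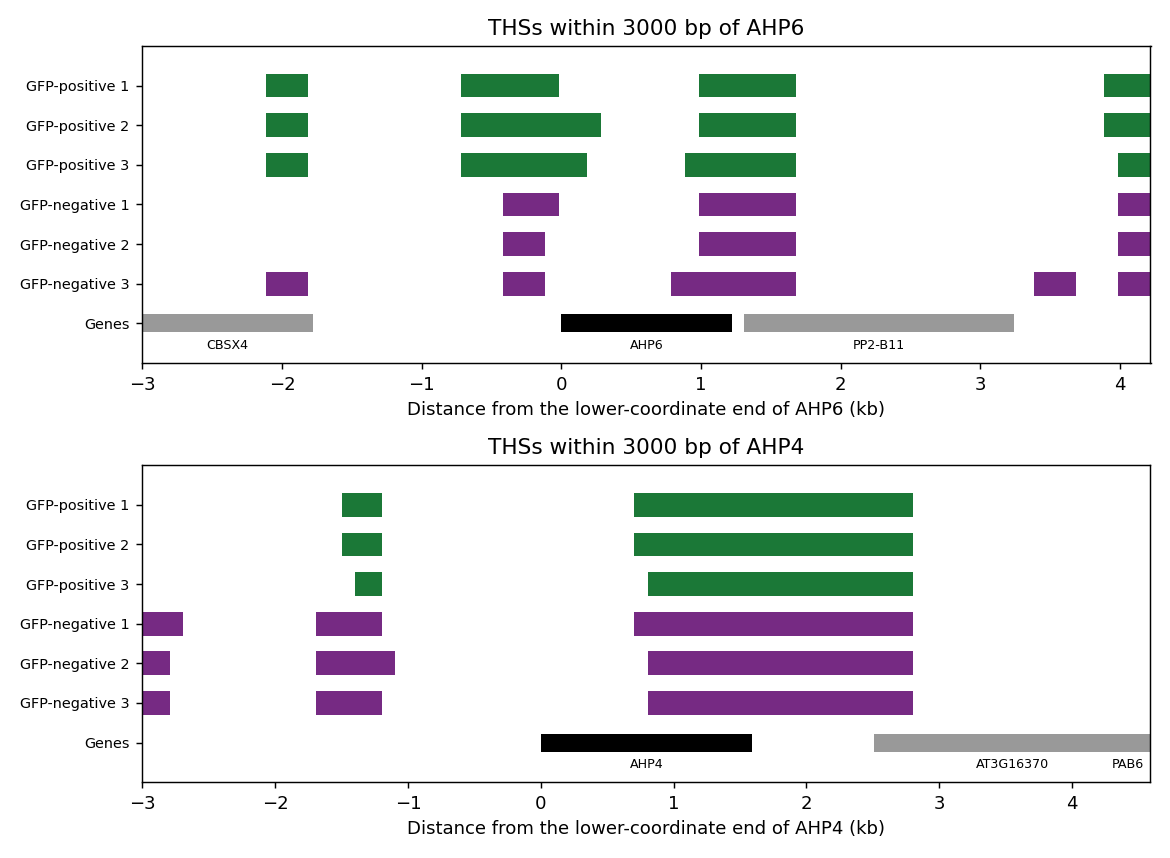
THSs (boxes) in each library within 3000 bp of AHP6 and AHP4, by distance in kb from the gene's lower-coordinate end; black boxes are the named gene and grey boxes its protein-coding neighbours. The site beside AHP6 begins 717 bp below the gene in the 3 GFP-positive libraries and 300 bp closer in the GFP-negative ones, and the outermost site below AHP4 is listed in the GFP-negative libraries alone.

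Splitting the AHP6 window by position gave different values for its parts. In the flanks without the gene body, coverage was 58.2%, 59% and 59% in founder cells and 43.2%, 38.2% and 38.2% in their neighbours. The groups did not overlap, and the difference of 18.9 percentage points (standard error 1.62) passed limma with an adjusted p of 0.0125 over all genes. That fit called 0.581% of genes higher. The small spread among the founder-cell libraries, with 2 equal values, enters this p.

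In the gene body, coverage was 19.4%, 42.6% and 42.6% in founder cells and 19.4%, 19.4% and 35.8% in neighbours. GFP-positive replicate 1 was as low there as 2 neighbour libraries, and the groups overlapped (limma adjusted p = 0.785; 0.535% of genes were called higher in gene bodies). With only the better-scoring sites of each list (those above its median score), coverage of the whole AHP6 window was 43.5%, 52.8% and 52.8% against 21.7%, 21.7% and 28.0%. The site beside the lower-coordinate end dropped out of the neighbour lists but not of the founder-cell lists at this threshold, and limma gave an adjusted p of 0.0379 (0.921% of genes called higher). This p follows from the score ranks described above and is not a separate result.

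**Figure D3:**
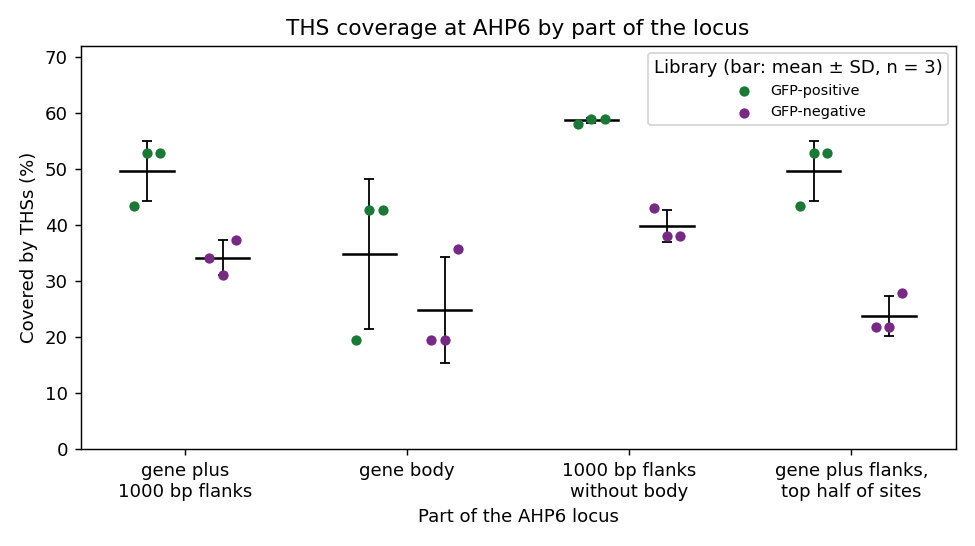
Coverage by THSs (y axis, percent) of parts of the AHP6 locus (x axis); points are libraries and bars are means ± SD (n = 3). The groups are apart in the flanks (58.2% to 59% against 38.2% to 43.2%) and overlap in the gene body.

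In the authors' deposited table of genes with differential sites, AHP6 was listed among the 121 genes of the column dTHS-up. No other AHP or AHK gene was in that column or among the 392 genes of dTHS-down. Both columns are short beside the 27444 nuclear protein-coding genes, so absence from them says little about a member. The table belongs to the same series, so the entry of AHP6 is not independent of the site lists. The authors' deposited table lists all 9 genes among the 25995 with THSs in the GFP-positive population, and 8 among the 21098 of the GFP-negative one, the exception being AHP2. The GFP-positive column is nearly as long as the set of 27444 genes, so an entry there sets few genes apart. The vascular gene APL and the response regulator genes ARR13, ARR16, ARR19 and ARR21, which like AHP2 had no coverage in any library, are also listed in the authors' deposited table for the GFP-positive population only. How sites were assigned to genes is not stated there.

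AHP1, AHP2, AHP3 and AHP5 encode phosphotransfer proteins that act redundantly in passing the cytokinin signal. They were covered less than AHP6 in every library. AHP5 (AT1G03430) had 18.8%, 16.2% and 16.2% in founder cells and 18.8%, 13.6% and 16.2% in their neighbours. The site crossing its lower-coordinate end ran from 847401 to 847900 on chromosome 1 in 5 libraries, and from 847501 to 847900 in GFP-negative replicate 3. It held 108 bp of AHP5 and crossed the gap of 110 bp to the gene 2A6, so it cannot be assigned to AHP5 alone. Coverage of 2A6 (AT1G03410) was 9.53% in each founder-cell library and 15.2%, 17.1% and 7.62% in neighbours (limma adjusted p = 0.676). At AHP5 the difference was 0.87 percentage points, with a 95% interval from -3.37 to 5.11 (limma adjusted p = 0.897). Above the gene, a broad region that began at 850401, 780 bp away, covered 1900, 1700 and 1600 bp in founder cells and 1900, 1600 and 1900 bp in neighbours.

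AHP3 (AT5G39340) had 12.02%, 9.61% and 9.61% against 9.61%, 12.02% and 9.61%, so the same values occurred in both groups. Its site crossed the upper-coordinate end and ended at 15751000 on chromosome 5 in all 6 libraries. There AHP3 overlaps its neighbour AT5G39350, and the site cannot be assigned to one of them. The 95% interval of the difference ran from -2.77 to 2.77 points (limma adjusted p = 1).

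AHP1 (AT3G21510) varied among libraries of both groups, with 7.36%, 12.3% and 17.2% in founder cells and 14.7%, 14.7% and 19.6% in their neighbours. An intragenic site was missing from GFP-positive replicate 1, 200 bp long in GFP-positive replicate 2 and the 3 GFP-negative libraries, and 400 bp long in GFP-positive replicate 3. The site at the upper-coordinate end started at 7579601 or 7579701 on chromosome 3. It was 300 bp long in each founder-cell library and 400, 400 and 600 bp long in the neighbours, so the groups did not overlap (exact permutation p = 0.1, n = 3 each, two-sided). Coverage of the whole window differed by -4.09 points, with a 95% interval from -11.9 to 3.76 (limma adjusted p = 0.697). The nearest protein-coding gene, DXPS1, 991 bp below AHP1, had no coverage in any library.

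AHP2 (AT3G29350) had no THS in the gene or its 1000 bp flanks. The nearest site began 1139 bp above the gene, at 11266701 on chromosome 3, close to the next gene UGD2, which encodes a UDP-glucose dehydrogenase. It was present in all 6 libraries, over 400, 600 and 400 bp in founder cells and 600, 500 and 500 bp in the others. The entry of AHP2 in the authors' deposited table, for the GFP-positive population only, is thus the one it shares with other genes without coverage here.

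AHP4 (AT3G16360) was the most widely covered member on average, with 52.6%, 52.6% and 49.8% in founder cells and 52.6%, 49.8% and 49.8% in their neighbours. One site of 2000 or 2100 bp accounted for the coverage of the window. It started at 5554901 or 5555001 on chromosome 3, inside the gene, and ended at 5557000 in all 6 libraries, inside the next gene AT3G16370. Its score ranked above 94.5% to 95.8% of the sites of each list. The difference in coverage was 0.93 points, with a 95% interval from -2.69 to 4.55 (limma adjusted p = 0.842).

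The groups differed below AHP4, outside the 1000 bp window. A region from 5550801 to 5551500, 2697 bp below the gene, held a THS of 500, 500 and 600 bp in the GFP-negative libraries and none in the GFP-positive ones. Among the 30 merged regions within 3000 bp of the members, it alone was present in all 3 libraries of one population and in none of the other. A further 3 regions, 1 at AHP6 and 2 at AHK2, were listed in 1 GFP-negative library and no other. Over all 26792 merged regions, 2.1% were in all GFP-negative libraries alone and 0.418% in all GFP-positive libraries alone, so 1 and 0 among 30 are near the background.

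A second region below AHP4, ending 1097 bp from the gene, was present in all 6 libraries but shorter in founder cells. Its covered length was 300, 300 and 200 bp against 500, 600 and 500 bp, with means of 267 ± 57.7 and 533 ± 57.7 bp (SD, n = 3 in each group; two-sided exact permutation p = 0.1). In both regions together 5 windows of 100 bp were covered in each neighbour library and in no founder-cell library. No other member had such a window. The 5 are 2.19% of the 228 windows covered near members, against 1.74% of covered windows in the genome. The count is thus near the background. With 2000 bp flanks, which take in the nearer region, AHP4 had 42.9%, 42.9% and 39.3% against 46.5%, 46.5% and 44.7%. The GFP-positive values then lay below the others without passing the test (limma adjusted p = 0.347).

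Within each library, AHP6 coverage was set against that of every other AHP gene. The excess of AHP6 over AHP1 was 36.1, 40.5 and 35.6 percentage points in founder cells and 19.4, 16.3 and 17.6 in neighbours. Over AHP5 it was 24.6, 36.6 and 36.6 points against 15.3, 17.4 and 21.0. Over AHP3 it was 31.5, 43.2 and 43.2 points against 24.5, 19.04 and 27.7, and over AHP2, which is at 0, it equals AHP6 coverage itself. Against AHP4 the order of the genes differed by library. AHP6 was above AHP4 by 0.221 and 3.00 points in founder-cell replicates 2 and 3, and the difference was -9.10 in replicate 1 and -18.4, -18.7 and -12.5 in neighbours.

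In all 5 comparisons the GFP-positive libraries lay above the GFP-negative ones, with group differences from 14.6 points (AHP4) to 19.6 points (AHP1). Each gave an exact permutation p of 0.1 (n = 3 each, two-sided), and 0.1 after Benjamini-Hochberg adjustment over the 5 comparisons, the smallest value the design allows. With 500 bp flanks p was 0.1 against AHP1 and 0.2 against each of the other 4 genes (exact permutation). The 5 comparisons share the AHP6 values and are not independent.

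No difference was detected at the 3 receptor genes. Over each gene plus 1000 bp flanks, the intervals limit one to under 5 percentage points in either direction. The receptor genes are longer than AHP6, so a point stands for more bp there and the limit is looser in bp. The limit does not cover the flanks taken alone. There AHK4 differed by -4.82 points (standard error 2.84, limma adjusted p = 0.666), AHK2 by -3.33 (standard error 3.14) and AHK3 by 1.67 (standard error 1.58). AHK3 (AT1G27320) had 28.6%, 28.6% and 26.0% in founder cells and 27.3%, 27.3% and 28.6% in their neighbours. Its strongest site lay across the lower-coordinate end of the gene, from 9485501, 9485601 or 9485801 to 9486900 or 9487200 on chromosome 1, and its score ranked above 93.4% to 96.7% of the sites of each list. A site at the other end of the gene covered 900, 900 and 800 bp against 900 bp in each neighbour library. It crossed the gap of 217 bp to AT1G27330, so it cannot be assigned to AHK3 alone. The group difference in coverage was 0, with a 95% interval from -2.68 to 2.68 points (limma adjusted p = 1).

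AHK4 (AT2G01830, also CRE1 or WOL), a receptor with a leading role in the root vasculature, had 23.1%, 26.6% and 26.6% against 26.6%, 27.8% and 26.6%. A long site below the gene began at 361301 on chromosome 2 in all 6 libraries and ended at 362900 in 5, 83 bp short of the gene. In GFP-negative replicate 3 it went on to 363300, inside the gene. A second region lay inside the gene, with a covered length of 1100, 1400 and 1400 bp in founder cells and 1400, 1300 and 1000 bp in neighbours. The difference in coverage was -1.55 points, with a 95% interval from -4.74 to 1.63 (limma adjusted p = 0.731).

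A smaller region 794 bp above AHK4, from 370501 to 371100, was listed in all 3 neighbour libraries, over 300, 600 and 300 bp. Of the founder-cell libraries it was listed in replicate 2 alone, over 300 bp.

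AHK2 (AT5G35750) was the least covered receptor, with 6.65%, 7.98% and 6.65% in founder cells and 6.65%, 9.30% and 6.65% in their neighbours. Its one site in the window crossed the upper-coordinate end of the gene and covered 500, 600 and 500 bp against 500, 700 and 500 bp. The difference was -0.44 points, with a 95% interval from -2.86 to 1.97 (limma adjusted p = 0.909). Below the gene, a region starting at 13908301 covered 100, 100 and 300 bp in founder cells and 300 bp in each neighbour library, so the groups overlapped. Sites further above the gene were scattered over 1 to 3 libraries each. The nearest protein-coding gene, AT5G35740, 58 bp below AHK2, had no coverage in any library.

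**Figure D4:**
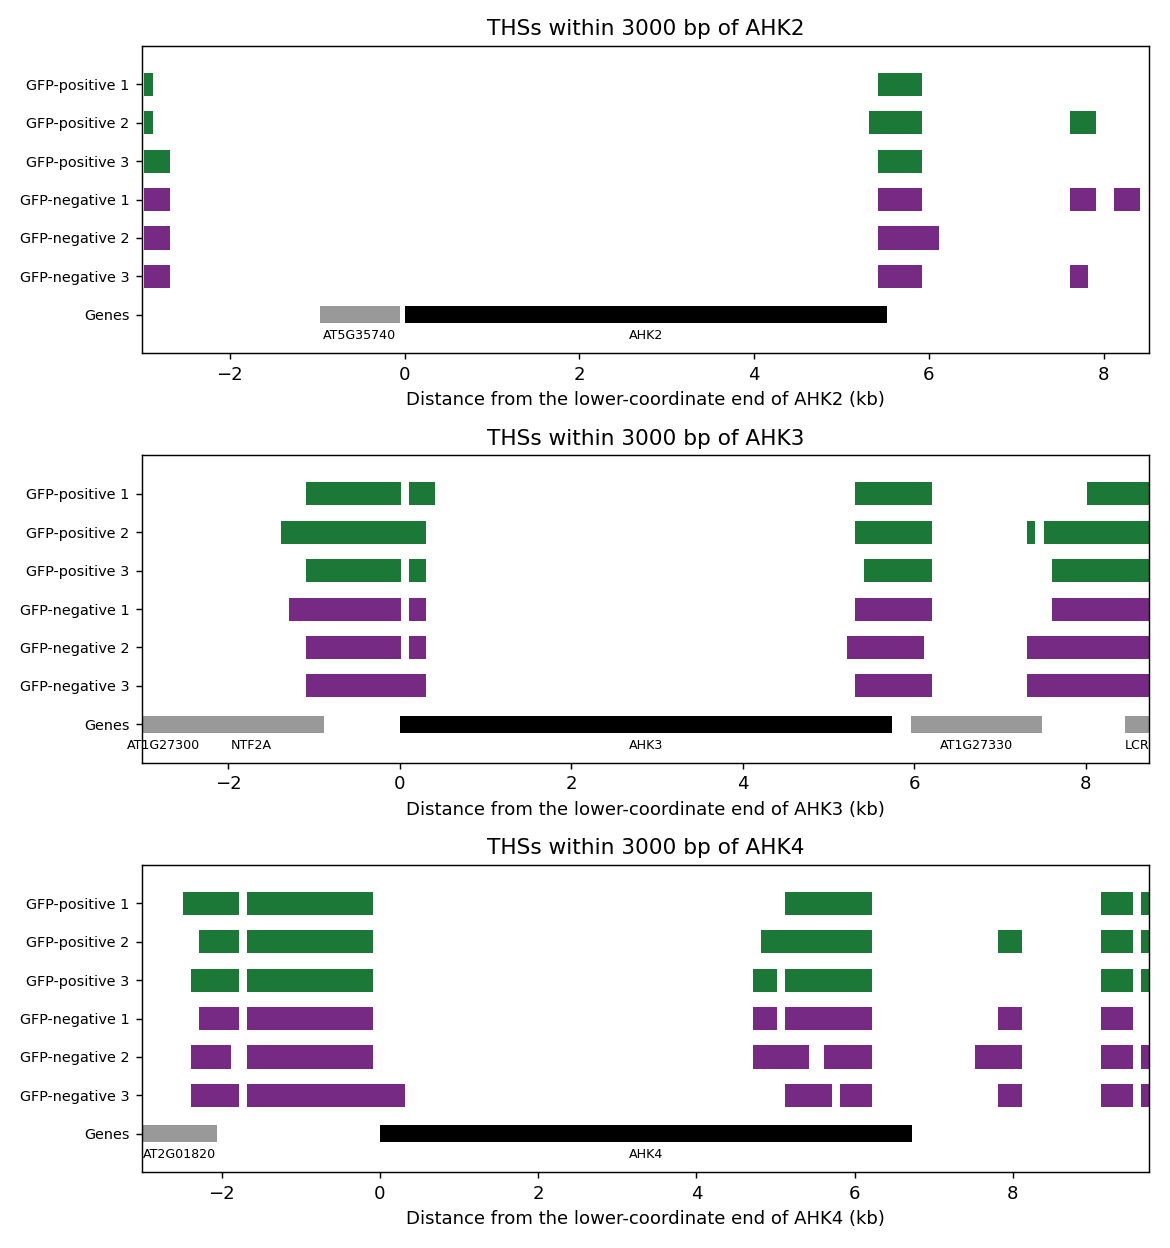
THSs (boxes) in each library within 3000 bp of the receptor genes AHK2, AHK3 and AHK4, by distance in kb from the gene's lower-coordinate end; black boxes are the named gene and grey boxes its protein-coding neighbours. Main sites at or near a gene end and, in AHK4, inside the gene recur in all 6 libraries. So do regions further out, such as that 2394 bp above AHK4. Another, 1569 bp above AHK3, covers 900, 1500 and 1300 bp in GFP-positive and 1300, 1600 and 1600 bp in GFP-negative libraries. The region 794 bp above AHK4 is absent from GFP-positive libraries 1 and 3.

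By coverage over all 6 libraries the order of the genes was AHP4 (51.2%), AHP6 (41.9%), AHK3 (27.7%), AHK4 (26.2%), AHP5 (16.7%), AHP1 (14.3%), AHP3 (10.4%), AHK2 (7.31%) and AHP2 (0). These are shares of each gene's own window. The values of neighbours in this order overlap among libraries for AHP4 and AHP6, AHK3 and AHK4, AHP5 and AHP1, and AHP1 and AHP3. AHP4 lay above 93.2% of all nuclear protein-coding genes, AHP6 above 89.1% and AHK2 above 32.6%.

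Of the 30 merged regions within 3000 bp of the 9 genes, 20 (66.7%) were present in all 6 libraries, against 70.1% of all regions. In these 20 shared regions, covered length separated the groups at 1 region with longer coverage in founder cells, at AHP6, and at 2 with shorter coverage, at AHP4 and AHP1. Over all 18768 shared regions the groups were apart in these directions at 3.8% and 4.17%. The count among members is thus small, and the region at AHP6 had the largest group difference of the 20, 533 bp. The outermost region below AHP4, which is not among the 20, differed by -533 bp.

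Among 32 other genes of cytokinin signalling, 28 could be tested and none passed limma in either direction. The median difference in coverage was 0 over the 32 genes, and over all genes tested it was also 0. The groups did not overlap at 3 of them with founder cells above (ARR3, ARR11 and AHK5) and at 1 with founder cells below (ARR15). That is 3 and 1 of 28 tested, against 3.61% and 6.63% of all genes tested.

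ARR3 (AT1G59940), a type-A regulator that damps the response, had 27.2%, 32.7% and 30.0% against 21.7%, 13.4% and 18.9% (limma adjusted p = 0.192). ARR15 (AT1G74890), also of type A, had 11.2%, 25.1% and 14.0% against 27.9%, 31.4% and 27.9% (limma adjusted p = 0.386). It is in the column dTHS-down of the authors' deposited table, the one gene of the 32 with a differential site there. The type-B activator ARR11 (AT1G67710) had 15.8% in each founder-cell library and 6.98%, 11.4% and 13.6% in neighbours (limma adjusted p = 0.417).

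AHK5 (AT5G10720), a histidine kinase that does not bind cytokinin, had 10.3%, 10.3% and 14.7% against 4.42%, 4.42% and 7.37% (limma adjusted p = 0.240). ARR4 (AT1G10470), of type A, has within 1000 bp a region listed in each neighbour library and in no founder-cell library. Its coverage overlapped widely, with 29.7%, 62.04% and 38.9% against 38.0%, 49.4% and 56.6% (limma adjusted p = 0.930).

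The 5 genes whose coverage over the 6 libraries lay closest to that of AHP6, by Euclidean distance in percentage points, were AT3G15480 (6.76), ASL1 (7.33), CLE21 (7.47), SHI (8.32) and TGA9 (8.73). ASL1 (AT5G66870) is a relative of AS2 in the LOB domain family, CLE21 (AT5G64800) encodes a signalling peptide of the CLE family, and SHI (AT5G66350) is the founding gene of the SHI-related family. Mean coverage was 46.8% and 34.4% at AT3G15480, 48.1% and 32.4% at ASL1, 48.8% and 34.3% at CLE21, and 47.2% and 34.9% at SHI (GFP-positive and GFP-negative). The genes were picked by these same values, so a group difference like that of AHP6 follows from the choice. Of the 5, TGA9 (AT1G08320), a bZIP factor gene with 46.9% and 35.9%, is in the column dTHS-up of the authors' deposited table, as AHP6 is.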

How the data were processed

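Per the submitters' processing notes, the authors' tools were SICER, bedtools 2.17.0, Picard 1.105, SAMtools 0.1.19 and BWA 0.7, with TAIR10. The order of steps, any read shift, filters, thresholds and the part of the controls were not given in the sources used here. Each deposited list holds positions (unit: other) and the authors' score per THS, on an unstated scale and used only to rank or filter within a list. The deposited table of the series holds gene identifiers (other), with no values. Sites were read as whole 100 bp windows including the last base, and are printed counting from 1.

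Gene names and positions came from RefSeq TAIR10.1, which keeps the nuclear sequences of TAIR10. To check positions, genes of the authors' GFP-negative column were searched for a neighbour-library THS within 1000 bp. The share found was 99.8% or more on each chromosome, and fell to 81.9% or less once genes were moved by 5000 bp. Strand, exons and sequence were not used here, and the planned promoter and protein descriptions were not made.

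Coverage was fitted with limma 3.58.1 (R 4.3.3; eBayes with a trend, Benjamini-Hochberg over 21886 genes with coverage in at least 2 libraries). Code was tested on simulated data. Regions were THSs of all libraries merged, present with 1 bp of overlap. Single values were compared by exact permutation. Members and lists were chosen with earlier results of these data known. The comparison of region lengths was added after the sites were seen. The text names all members, pathway genes past the threshold or with a region of one group alone, the nearest gene within 1000 bp, and the 5 genes closest to AHP6. Pathway genes whose groups do not overlap, CBSX4 and UGD2 were named after their values or positions were seen. Replicate numbers were not taken as pairs.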

Additional observations from a re-analysis of the deposited data

How the results depend on the processing

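The difference at AHP6 kept its sign in all 16 alternatives, and it was 13.98 to 18.63 points when 1 library was left out (limma adjusted p 0.0872 to 0.354). The groups overlapped with 500 bp flanks (12.7 points, adjusted p = 0.544) and in the gene body (10.0 points, adjusted p = 0.785). The difference passed the threshold in the flanks without the gene body (18.9 points) and with the sites above each list's median score (25.9 points), where 1 member was called higher. The score cut drops the site beside AHP6 from the neighbour lists alone. In these 2 settings 125 and 146 genes were higher over all genes, against 187 with an equal number of sites per library. The main setting gave 76 higher and 249 lower genes. Leaving out 1 library gave 84 to 208 higher genes (208 when GFP-negative replicate 3 was dropped, 130 when GFP-positive replicate 3 was). It gave 141 to 443 lower genes (141 and 158 without GFP-positive replicates 1 and 3, and 443 without GFP-negative replicate 1).

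Same-numbered libraries of the groups had deviations correlated at 0.160, 0.067 and 0.039 over genes, and differently numbered ones at -0.145 to 0.085. Not every library correlated best with its own number. With 3 libraries per group these values cannot show whether same-numbered libraries shared a sort. With the replicate number as a block, 1 gene was higher and 29 lower, and AHP6 differed by 15.5 points (adjusted p = 0.350).

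Signs turned at members with small differences: AHP4 with 2000 bp flanks (-4.17 points), AHP5 and AHK4 with sites above the median score (-0.18 and 1.53), and AHK2 in the gene body (0.60). Without GFP-negative replicate 2 they also turned at AHP5 (-0.44) and AHK2 (0.44). Leaving out 1 library gave -0.44 to 2.18 points at AHP5 and -0.89 to 0.44 at AHK2. None passed limma. At AHP6 minus each other AHP no sign turned, but the exact permutation p reached 0.2 with 500 bp flanks and 0.3 to 0.5 in the gene body.

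Near members, 1 region was seen in founder cells alone where 50% of a region had to be covered (the site beside AHP6), and 1 with equal numbers of sites or without GFP-negative replicate 3 (inside CBSX4). For neighbours alone there were 2 in the first case (AHP4 and AHP1), and 2 with equal numbers or without GFP-positive replicate 2 (AHP4 and AHK4). Leaving out 1 library gave 0 to 1 and 1 to 2. Over all regions the founder-cell count, 112 in the main setting, was 173 and 305 in the first 2 settings and 135 to 354 without 1 library. The neighbour count, 562 in the main setting, was 679 and 422 in the same 2 settings and 609 to 1052 without 1 library. The causes were not tested. Without read counts, a site below the authors' threshold cannot be told from closed chromatin.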
